A study of Mus musculus with 18 samples.

Results

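NRF2 is a transcription factor that switches on genes of antioxidant and drug-metabolising defence. In unstressed cells KEAP1, an adaptor of a ubiquitin ligase, binds NRF2 and sends it for degradation, and oxidants or electrophiles that modify KEAP1 release it. Freed NRF2 pairs with small MAF proteins on antioxidant response elements, where BACH repressors compete for the same sites, so that much of its regulation is on the protein and is not visible as transcript abundance. In endothelial cells its targets are known for disposing of haem, quinones and peroxides.

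The genes described here are the regulator pair Nfe2l2, which encodes NRF2, and Keap1, and 8 classical targets, Nqo1, Hmox1, Gclc, Gclm, Txnrd1, Srxn1, Me1 and G6pdx. The 10 genes were listed by name, and the list was chosen with earlier results of these data known. They were found by Ensembl identifier among 55401 genes of the endothelial table and by symbol among 22612 lines of the EO771 table. All 10 passed the filter on low values in both tables. The 18 RNA-seq libraries fell into 6 groups, each of 3. BEC normal was blood vessel endothelial cells from the mammary fat pad of mice without tumours, BEC tumour the same cell type from EO771 primary tumours, HEC normal high endothelial cells from inguinal lymph nodes of such tumour-free mice, and HEC tumour high endothelial cells from lymph nodes of mice inoculated with EO771, which the labels call metastases. The mice were wild-type C57BL/6, endothelial cells were sorted as CD45-negative and CD31-high, and HECs also carried PNAd, the sugar epitope of high endothelial venules. EO771, a mouse breast cancer line, was cultured with vehicle or with 12-HETE, the product of arachidonate 12-lipoxygenase.

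Total values were 56.4 to 79.4 M per endothelial library and 17.3 to 18.6 M per EO771 library. The 6 endothelial markers summed to between 2071 and 2866 counts per 1000000 (CPM) in the 12 sorted libraries. Glycam1 and Chst4, which define high endothelium, were listed at 0 in every BEC library, and Fut7 was at most at 0.41 CPM there. Cd34 and Madcam1, also on this list of 5 genes, did not set HECs apart in this way. Mean Cd34 was 834 CPM in HEC normal against 494 in BEC normal, but 670 in HEC tumour against 819 in BEC tumour. Madcam1 was near 0 throughout, with a mean of 0 CPM in HEC normal against 0.30 in BEC normal. A pair of HEC libraries stood apart on markers of this kind, which was seen after the values were known. The deposited value of Chst4 was 4 in HEC normal replicate 2, beside 19627 and 21144 in replicates 1 and 3, and that of Fut7, a fucosyltransferase that builds L-selectin ligands, was 12879 in HEC tumour replicate 3, beside 57586 and 66399 in replicates 1 and 2. Calls of members that changed without either library are given beside them. Markers of other cells moved with the groups. The 7 myeloid markers summed to between 114 and 136 CPM in BEC normal, 1476 and 1979 in BEC tumour, 485 and 510 in HEC normal and 357 and 375 in HEC tumour, and the 4 pericyte markers to between 686 and 695, 54 and 82, 8.3 and 9.8, and 3.1 and 4.0 CPM in the same order. Fat pads, tumours and lymph nodes were digested with different enzymes, so digestion and tissue of origin cannot be told apart from cell type, nor from tumour in BECs. Values are counts normalised by DESeq2 size factors, given per library in replicate order, and gene coordinates are those of GRCm38. The words rose and fell are used where the adjusted p was under 0.05 (two-sided Wald test on the genes of a table that passed the filter on low values), and called where the fold change was also over 2.

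The antioxidant response element has the core TGACNNNGC. Each promoter of RefSeq (GRCm38.p6, from 250 bases before to 50 bases after a transcript start) was searched for it on both strands. Of the 10 genes, 8 had a promoter entry, with none for Hmox1 and Gclc. A match was found in 6 of these 8 genes, beside 14% of all 27025 genes with an entry. The windows of Keap1 and Nqo1 held none, and sequence outside the windows was not searched. The matches are printed because 6 of the 10 genes held this sequence feature, and a match is a description and not evidence of binding. Each window runs 5′ to 3′ on the strand of its gene, with the core or its reverse complement in capitals.
Nfe2l2, first capital 240 bases before the start, chr2:75704875-75704913, minus strand: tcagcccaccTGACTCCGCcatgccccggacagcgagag
Gclm, 134 bases before, chr3:122245403-122245451, plus strand, core on the other strand: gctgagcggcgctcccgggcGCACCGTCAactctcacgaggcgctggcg
Txnrd1, 92 bases before start site 2 of its entries, chr10:82859094-82859142, plus strand, core on the other strand: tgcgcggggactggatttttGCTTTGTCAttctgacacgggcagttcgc
Srxn1, at position 29 from the start, chr2:152105532-152105573, plus strand, core on the other strand: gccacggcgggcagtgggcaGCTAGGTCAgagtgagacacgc
Me1, 6 bases before, chr9:86695892-86695940, minus strand: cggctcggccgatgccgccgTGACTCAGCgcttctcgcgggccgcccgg
G6pdx, 57 bases before, chrX:74428909-74428957, minus strand, core on the other strand: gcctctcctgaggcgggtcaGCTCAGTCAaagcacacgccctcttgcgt
The match of Me1 also holds TGACTCA, the AP-1 site, which the other 5 matches did not overlap.

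Per kilobase of exon, Hmox1, the inducible haem oxygenase, had the highest level of the 10 genes in all 4 endothelial groups, at 12345 ± 317 (SD, n = 3) normalised counts per kb in BEC normal and 45800 ± 4995 in BEC tumour. Gclm or Keap1 had the lowest, with Gclm at 675 ± 135 per kb in BEC normal and Keap1 at 1029 ± 138 in HEC tumour. In EO771 cells the order differed. Me1, the cytosolic malic enzyme, was the highest of the 10 genes in both EO771 groups, at 1254 ± 93.1 per kb with vehicle, and Nqo1 was the lowest, at 63.3 ± 4.98 per kb. The 2 tables were made apart and were not tested against each other.

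Nfe2l2 (ENSMUSG00000015839, chr2:75675513-75704641) varied little across the endothelial groups. Its normalised counts were 15432, 13394 and 13743 in BEC normal, 18768, 17391 and 16839 in BEC tumour, 16678, 16500 and 16534 in HEC normal, and 17668, 16501 and 17288 in HEC tumour. All 9 libraries of the other groups lay above the 3 of BEC normal, and neighbours among the other groups overlapped. The highest group mean was 1.24 times the lowest, the smallest such ratio of the 10 genes. Nfe2l2 rose by 0.32 ± 0.07 log2 units in BEC tumour over BEC normal (DESeq2, adjusted p = 1.31e-05). In HEC tumour against HEC normal the difference was 0.05 log2 units, with a 95% confidence interval from -0.08 to 0.18.

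Keap1 (ENSMUSG00000003308, chr9:21229730-21239361), which encodes the protein that turns NRF2 over, moved with tumour in opposite directions in the 2 cell types. Its normalised counts were 4226, 3767 and 3803 in BEC normal and 6807, 6535 and 7124 in BEC tumour. They were 5487, 6341 and 6358 in HEC normal and 5561, 4606 and 4326 in HEC tumour. The BEC groups did not overlap, whereas the highest HEC tumour library lay above the lowest HEC normal library. Keap1 rose by 0.79 ± 0.11 log2 units in BECs (DESeq2, adjusted p = 8.29e-13) and fell by 0.33 ± 0.11 in HECs (adjusted p = 0.00846), and the HEC difference lost its adjusted p under 0.05 without replicate 2 or 3 of either HEC group (adjusted p from 0.0514 to 0.0689). The change in HECs less that in BECs was -1.12 ± 0.15 log2 units (adjusted p = 1.24e-12). Of the exons of Keap1, part overlaps Gm16754 on the other strand, and whether counting used strand is not stated.

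**Figure D1:**
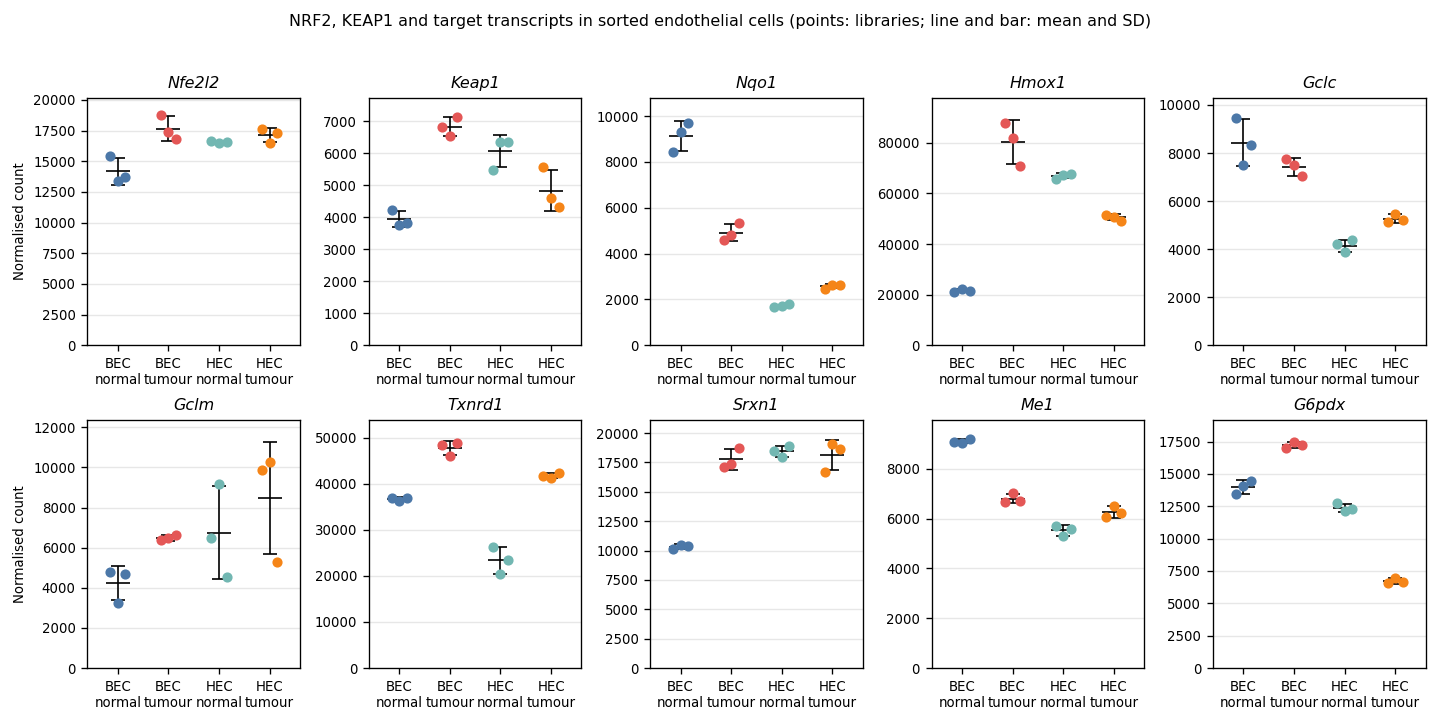
Normalised counts of Nfe2l2, Keap1 and 8 targets, 1 panel a gene with the vertical axis from 0, in 12 sorted endothelial libraries. Points are libraries, the line and bar the mean and SD of 3. Hmox1 is lowest in BEC normal (21069 to 22178) while Nqo1 is highest there (8419 to 9676), and the Gclm libraries of both HEC groups are spread over about 2-fold.

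The first comparison asked how high endothelium of lymph nodes differs from fat pad endothelium in mice without tumours. HECs had more Hmox1 and less Nqo1 and Gclc transcript than BECs. Of the 10 genes 1 was called higher, where 17.1% of the 18511 genes tested were, and 2 were called lower, where 15.1% were. All 10 had an adjusted p under 0.05, where 63.3% of genes did, with 5 higher and 5 lower. Their median log2 fold change was 0.02, and that of all genes was 0.00.

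Nqo1 (ENSMUSG00000003849, chr8:107388225-107403206), a quinone reductase, had normalised counts of 8419, 9319 and 9676 in BEC normal and 1670, 1707 and 1779 in HEC normal. It fell by 2.41 ± 0.08 log2 units, which is 5.32-fold lower in HECs (DESeq2, adjusted p = 1.01e-194). Gclc (ENSMUSG00000032350, chr9:77754535-77794485), the catalytic subunit of the enzyme that makes the first step of glutathione synthesis, had 9446, 7521 and 8344 in BEC normal and 4214, 3870 and 4361 in HEC normal. Its groups did not overlap, and its log2 fold change of -1.02 ± 0.09 sat at the 2-fold threshold, so the call was lost with edgeR and with TMM scaling (-0.98 in both) and without BEC normal replicate 1 (-0.94) or HEC normal replicate 2 (-0.97). Pericyte markers were also far higher in BEC normal than in HEC normal. Acta2 carried most of the pericyte sum (622 against 2.96 CPM), and Rgs5, Pdgfrb and Cspg4 were also higher in BEC normal. The fibroblast marker sum was between 196 and 203 CPM in BEC normal and between 16.6 and 19.4 in HEC normal. Col1a1 (122 against 0.71 CPM) and Col3a1 (59.7 against 0.82) carried most of it, and Dcn was at 2.63 against 0.17. Pdgfra was alike in both groups (16.2 and 15.9 CPM) and Lum was at 0 in both. The part of both marker sets in these differences was not tested. In bulk libraries, fewer cells of a type and less RNA per cell cannot be told apart.

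Hmox1 (ENSMUSG00000005413, chr8:75093621-75100589) went the other way. Its normalised counts were 21069, 22178 and 21601 in BEC normal and 65897, 67230 and 67726 in HEC normal. The HEC libraries were spread over 1.03-fold and all lay above the BECs, a rise of 1.63 ± 0.08 log2 units or 3.10-fold (DESeq2, adjusted p = 7.94e-102). Among myeloid markers in HEC normal, Cd68 stood at 488 CPM against 109 in BEC normal, and carried nearly all of the myeloid sum there. The other 6 markers were low in both groups, with Lyz2 at 5.73 and 4.11 CPM, Cd14 at 1.58 and 6.98, Csf1r at 0.38 and 3.27, and Ptprc, the pan-leukocyte marker, at 0.28 and 0.23.

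The other 5 targets differed by less than 2-fold. Srxn1, the sulfiredoxin that repairs overoxidised peroxiredoxins, was at 10091, 10491 and 10412 in BEC normal and 18468, 17993 and 18873 in HEC normal, a rise of 0.84 ± 0.06 log2 units (DESeq2, adjusted p = 4.6e-38). The log2 fold changes were -0.65 ± 0.08 for Txnrd1, cytosolic thioredoxin reductase, -0.72 ± 0.05 for Me1, and -0.18 ± 0.05 for G6pdx, glucose-6-phosphate dehydrogenase of the pentose phosphate pathway. For none of these 4 targets did the groups overlap, and how many of all genes separated in this way was not counted. Gclm, the modifier subunit that partners Gclc, was 0.67 ± 0.27 log2 units higher in HECs (adjusted p = 0.023), with overlapping groups. The catalytic and modifier subunits of the same enzyme thus had opposite signs in HEC normal against BEC normal.

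Gclm (ENSMUSG00000028124, chr3:122245557-122270732) had the widest spread between replicates of the 10 genes in the endothelial groups. Its normalised counts were 6494, 9183 and 4551 in HEC normal and 9867, 10270 and 5281 in HEC tumour, against 4782, 3263 and 4690 in BEC normal and 6359, 6469 and 6648 in BEC tumour. HEC normal replicates 1 and 3 and HEC tumour replicate 3 lay within the range of the BEC libraries, and the coefficient of variation was 34.5% and 32.7% in the HEC groups and 2.25% in BEC tumour. Its exons overlap Gm6061 on the same strand and Gm17494 on the other, and the normalised count of Gm17494 ran from 4124 to 21872 over the 12 libraries. The Gclm difference of HEC normal from BEC normal had adjusted p values of 0.124 without BEC normal replicate 2 and 0.217 without HEC normal replicate 2.

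The other genes of the pathway were taken from a list of 52 regulators and enzymes, of which 51 were tested and Nfe2l3 was not. In HEC normal against BEC normal, 3 were called higher, where 17.1% of all genes were, and 9 lower, where 15.1% were. The 3 higher genes were all regulators that bind at antioxidant response elements. Mafk, a small MAF partner, had a mean normalised count of 13206 in HEC normal and 3545 in BEC normal, a log2 fold change of 1.90 ± 0.05, and Maff (1.55 ± 0.58) and the repressor Bach2 (1.77 ± 0.64) rose with wide errors. The calls of Bach2 and Maff were both lost without HEC normal replicate 1, which left 1 gene called higher, and that of Bach2, whose groups overlapped, also without BEC normal replicate 2 (adjusted p = 0.0502) or HEC normal replicate 2 (0.0555). Of the 11 detoxification genes 7 were called lower and none higher, with a median log2 fold change of -1.93, which was the same with Cbr3 at the limit that its zeros in 5 of 6 HEC libraries allow. The named examples are Aox1, aldehyde oxidase (95 against 1526 normalised counts, -4.01 ± 0.19), and Abcc4, an efflux pump (1049 against 3989, -1.93 ± 0.12), with the glutathione transferase Gsta4 (251 against 1901, -2.92 ± 0.20) from another list. Pericyte and fibroblast marker sums, carried mainly by Acta2, Col1a1 and Col3a1, were also far higher in BEC normal than in HEC normal. Their part in these values was not tested.

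The comparison of BEC tumour with BEC normal asked what changes in blood vessel endothelium inside a tumour. Hmox1 rose 3.71-fold, Srxn1, Txnrd1 and G6pdx rose by less than 2-fold, and Nqo1 and Me1 fell. Of the 10 genes 1 was called higher, where 12.4% of all genes were, and none lower, where 10.8% were. An adjusted p under 0.05 was reached by 9, where 53.7% of genes reached it, with 7 higher and 2 lower. The median log2 fold change was 0.35, and that of all genes was 0.01. This comparison shares its BEC normal libraries with the one above.

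Hmox1 was at 21069, 22178 and 21601 normalised counts in BEC normal and at 87880, 82031 and 70678 in BEC tumour. It rose by 1.89 ± 0.08 log2 units or 3.71-fold (DESeq2, adjusted p = 2e-136), and the BEC tumour libraries lay above all other endothelial libraries. Markers of myeloid and red blood cells were higher in the same libraries. Cd68 was at 889 CPM in BEC tumour and 109 in BEC normal, Lyz2 at 774 and 4.11, Csf1r at 46.1 and 3.27, and Ptprc at 9.85 and 0.23. The 4 red blood cell markers summed to between 26.3 and 39.2 CPM in BEC tumour and at most 1.42 in BEC normal. All 7 myeloid and all 4 red cell markers were above 0 in every BEC tumour library, and their part in the Hmox1 value was not tested. The epithelial and EO771 markers summed to 3.31, 6.36 and 68.3 CPM in BEC tumour replicates 1 to 3 and to between 1.51 and 2.94 in BEC normal. The library at 68.3 CPM, replicate 3, was the one with the lowest Hmox1 of the BEC tumour group. Its myeloid sum was also the lowest of the group, at 1476 CPM beside 1979 and 1888 in replicates 1 and 2, while its red blood cell sum was the highest. The part of the epithelial and EO771 markers was not tested.

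**Figure D2:**
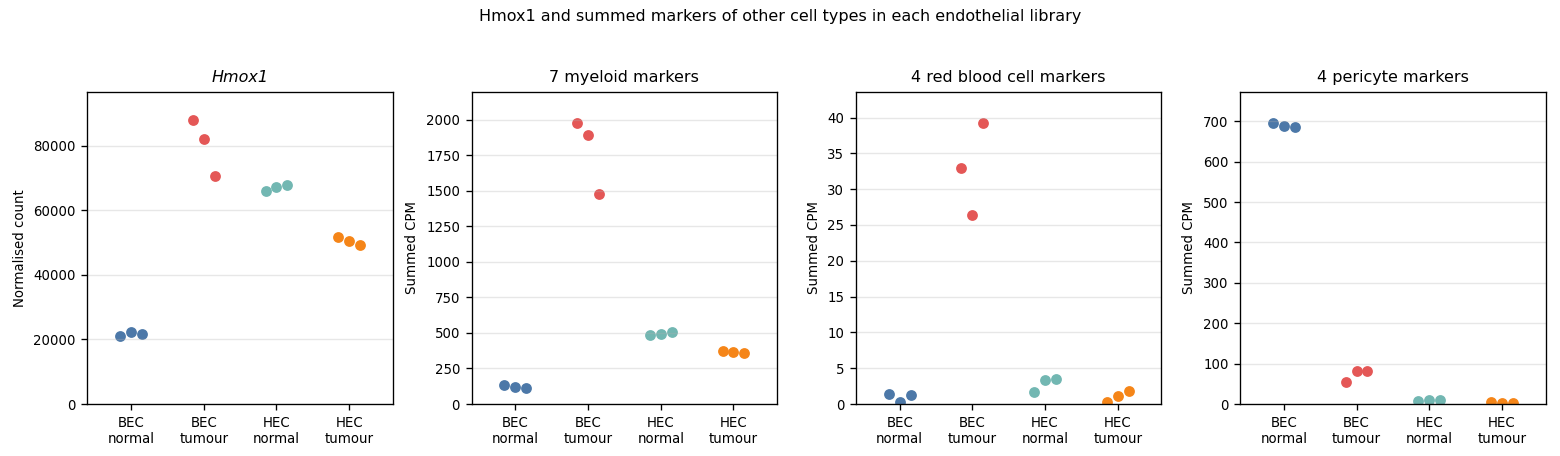
Hmox1 normalised count and the summed CPM of 7 myeloid, 4 red blood cell and 4 pericyte markers, each point 1 of 12 endothelial libraries, axes from 0. In BEC tumour both Hmox1 (70678 to 87880) and the myeloid sum (1476 to 1979 CPM) are at their highest, while HEC normal holds Hmox1 at 65897 to 67726 with a myeloid sum of 485 to 510 CPM.

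Nqo1 fell from 8419, 9319 and 9676 in BEC normal to 4608, 4825 and 5312 in BEC tumour, by 0.89 ± 0.08 log2 units (DESeq2, adjusted p = 1.17e-28). Me1 (ENSMUSG00000032418, chr9:86581371-86695953) fell from 9085, 9033 and 9183 to 6670, 7028 and 6714, by 0.42 ± 0.05 (adjusted p = 3.61e-16), with 30 of its exon bases shared with A330041J22Rik on the other strand. Both genes separated the groups completely, in the direction opposite to Hmox1. Srxn1 (ENSMUSG00000032802, chr2:152105516-152111376) rose from 10091, 10491 and 10412 to 17137, 17371 and 18755, by 0.78 ± 0.06 log2 units. Txnrd1 (ENSMUSG00000020250, chr10:82833951-82897712) rose by 0.38 ± 0.08 and G6pdx (ENSMUSG00000031400, chrX:74409483-74429194) by 0.30 ± 0.05. For Gclc the difference was -0.18 log2 units with an interval from -0.36 to -0.01 and an adjusted p of 0.0748, and it fell by 0.27 (adjusted p = 0.00408) without BEC normal replicate 2. Gclm rose by 0.61 ± 0.27 (adjusted p = 0.0442), which was lost in 7 of the alternatives run. The adjusted p was 0.0765 with edgeR, 0.0574 with TMM scaling, 0.196 and 0.0552 without BEC normal replicate 2 or 3, and 0.0834, 0.0944 and 0.0989 without BEC tumour replicate 1, 2 or 3.

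Among the other pathway genes in BEC tumour against BEC normal, 4 were called higher, beside 12.4% of all genes, and 9 lower, beside 10.8%. The higher genes named by the rule are Fth1, the ferritin heavy chain that stores iron (1.30 ± 0.04), Mafk (1.09 ± 0.06) and the iron exporter Slc40a1 (2.27 ± 0.29), and they rose in the libraries whose myeloid and red cell markers were higher. Of the 11 detoxification genes 7 were again called lower and none higher, with a median of -1.33 against 0.01 over all genes. Aox1 went from a mean of 1526 to 317 normalised counts (-2.27 ± 0.17) and Cbr3, a carbonyl reductase, from 2046 to 284 (-2.85 ± 0.24). Gsta4 went from 1901 to 187 (-3.34 ± 0.20). The pericyte marker sum went from between 686 and 695 to between 54 and 82 CPM in the same libraries, mostly through Acta2 (622 to 48.7). The fibroblast sum went from between 196 and 203 to between 17.5 and 41.4, with Col1a1, Col3a1 and Pdgfra lower in BEC tumour. Dcn (2.63 to 7.16 CPM) and Lum (0 to 0.35) went the other way. The part of both marker sets in these values was not tested. The 7 detoxification genes called lower became 5 to 8 under the alternatives run.

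**Figure D3:**
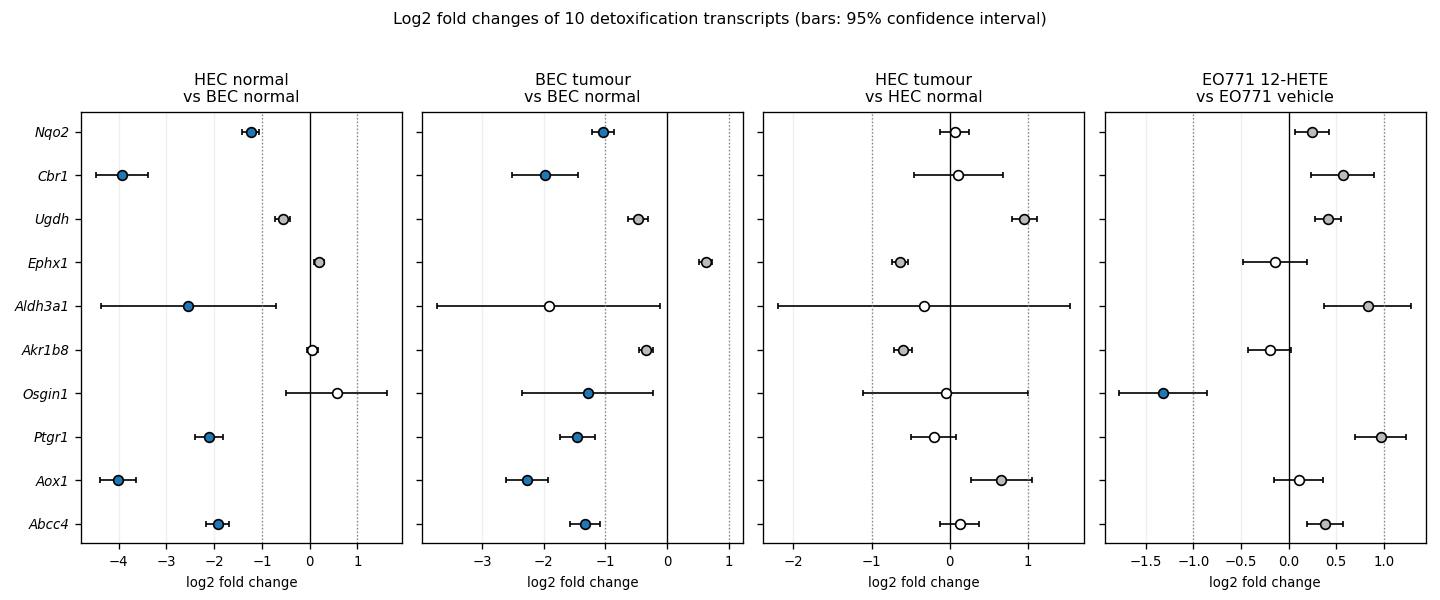
Log2 fold changes of 10 detoxification genes in 4 comparisons, with 95% confidence intervals. Blue marks genes called lower, grey an adjusted p under 0.05 without the 2-fold change, white neither, and dotted lines 2-fold. Cbr3 is left out because 5 of 6 HEC libraries were at 0. The first 2 panels share the BEC normal libraries, and in HEC tumour against HEC normal no gene of the list was called.

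HEC tumour against HEC normal compared the same cell type from lymph nodes of mice with and without tumours. No member was called in either direction, where 4.58% of all genes were called higher and 3.21% lower, but 7 had an adjusted p under 0.05, where 35.4% of genes did, 4 of them higher and 3 lower. The median log2 fold change of the 10 genes was 0.12, and that of all genes was 0.02. Txnrd1 and Nqo1 rose and G6pdx and Hmox1 fell.

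Txnrd1 normalised counts were 26253, 20497 and 23447 in HEC normal and 41793, 41199 and 42312 in HEC tumour. It rose by 0.84 ± 0.08 log2 units or 1.79-fold (DESeq2, adjusted p = 4.47e-23), and the groups did not overlap. Nqo1 rose from 1670, 1707 and 1779 to 2461, 2642 and 2617, by 0.58 ± 0.08 (adjusted p = 2.12e-11). The Nqo1 libraries of HEC tumour still lay below every BEC library. Gclc rose from 4214, 3870 and 4361 to 5130, 5464 and 5206, by 0.34 ± 0.09 (adjusted p = 0.000927), and Me1 rose by 0.18 ± 0.05.

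G6pdx was at 12745, 12145 and 12299 in HEC normal and at 6582, 6961 and 6643 in HEC tumour. It fell by 0.88 ± 0.05 log2 units or 1.84-fold (DESeq2, adjusted p = 1.3e-77). Part of its exons overlaps those of Ikbkg on the other strand. Hmox1 fell from 65897, 67230 and 67726 to 51657, 50576 and 49294, by 0.41 ± 0.08 (adjusted p = 6.82e-07), while Cd68 went from a mean of 488 to 360 CPM. Cd68 carried nearly all of the myeloid sum in both HEC groups, the other 6 markers being at most at 5.73 CPM on average. Adgre1, a macrophage marker, was at 0 in all 3 HEC tumour libraries and Ptprc at 0.02 CPM. For Srxn1 the difference was -0.02 log2 units, with an interval from -0.15 to 0.10.

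Of the other pathway genes none was called higher in HEC tumour against HEC normal, beside 4.58% of all genes, and 4 were called lower, beside 3.21%. Txnip, which binds and inhibits thioredoxin, went from a mean of 14664 to 4400 normalised counts (-1.74 ± 0.16), and Idh1, a cytosolic source of NADPH, from 3413 to 1653 (-1.05 ± 0.14). Slc40a1 went from 58 to 13 normalised counts (-2.20 ± 0.39), a low level. None of the 11 detoxification genes was called, and 4 had an adjusted p under 0.05, where 35.4% of all genes did.

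Between HEC tumour and BEC tumour, 1 of the 10 genes was called, G6pdx, which was lower in HECs, where 10.7% of all genes were called lower and 11.2% higher. An adjusted p under 0.05 was reached by 7 genes, where 54.3% of all genes reached it in either direction. All 7 were lower in HECs, and the share of all genes lower by this rule was not counted. The median log2 fold change was -0.34, and that of all genes was 0.01. G6pdx was at 17017, 17502 and 17243 in BEC tumour and at 6582, 6961 and 6643 in HEC tumour, a fall of 1.36 ± 0.05 log2 units or 2.56-fold (DESeq2, adjusted p = 3.47e-187). The log2 fold changes were -0.93 ± 0.08 for Nqo1, -0.67 ± 0.08 for Hmox1, -0.50 ± 0.11 for Keap1 and -0.50 ± 0.09 for Gclc. Me1 (-0.12 ± 0.05) and Txnrd1 (-0.19 ± 0.08) lost their adjusted p under 0.05 in 7 and 5 of the alternatives run, among them the fits without HEC tumour replicate 1 (0.173 and 0.0854) and without replicate 3 (0.112 and 0.0663), whereas Gclm gained it without HEC tumour replicate 3 (0.0242). Of the other pathway genes 1 was called higher, Osgin1 (1.81 ± 0.54), with overlapping groups, and 8 lower, the higher count becoming 2 in 3 of the alternatives run, beside 11.2% and 10.7% of all genes. The first of the lower genes by test statistic were Slc40a1, at 2707 normalised counts in BEC tumour and 13 in HEC tumour, the microsomal epoxide hydrolase Ephx1 (-1.08 ± 0.05) and Idh1 (-2.18 ± 0.14).

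The interaction term set the tumour response of HECs against that of BECs. It was called higher for 1 of the 10 genes, where 11.2% of all genes were, and lower for 3, where 12.1% were. An adjusted p under 0.05 was reached by 9, where 46.7% of all genes reached it. Values are the log2 change in HECs less that in BECs, so that a fall in BECs alone also gives a positive value. Nqo1 had 1.48 ± 0.11, since it rose in HECs and fell in BECs. Hmox1 had -2.30 ± 0.11, G6pdx -1.18 ± 0.07 and Keap1 -1.12 ± 0.15, each of which fell in HECs and rose in BECs. The fall of Keap1 in HECs lost its adjusted p under 0.05 in 4 of the alternatives run, as given above. Smaller terms were -0.80 ± 0.09 for Srxn1, 0.60 ± 0.07 for Me1, 0.53 ± 0.13 for Gclc and 0.46 ± 0.11 for Txnrd1 (DESeq2, all 4 with an adjusted p of at most 0.000255). Nfe2l2 had -0.27 ± 0.10 (adjusted p = 0.0146), which was lost without BEC normal replicate 2 or 3 (adjusted p = 0.0535 and 0.0581), and Gclm had -0.28 with an interval from -1.03 to 0.47. Of the other pathway genes 7 were called higher, beside 11.2%, and 9 lower, beside 12.1%. The 3 higher genes with the largest test statistic were Gsta4 (3.59 ± 0.28), Ugdh, which makes UDP-glucuronate (1.43 ± 0.12), and Aox1 (2.93 ± 0.27), and the 3 lower were Fth1 (-1.10 ± 0.05), Ephx1 (-1.27 ± 0.08) and Mafk (-1.22 ± 0.08). The markers of other cells differed between the 4 groups as given above, and their part in these terms was not tested.

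**Figure D4:**
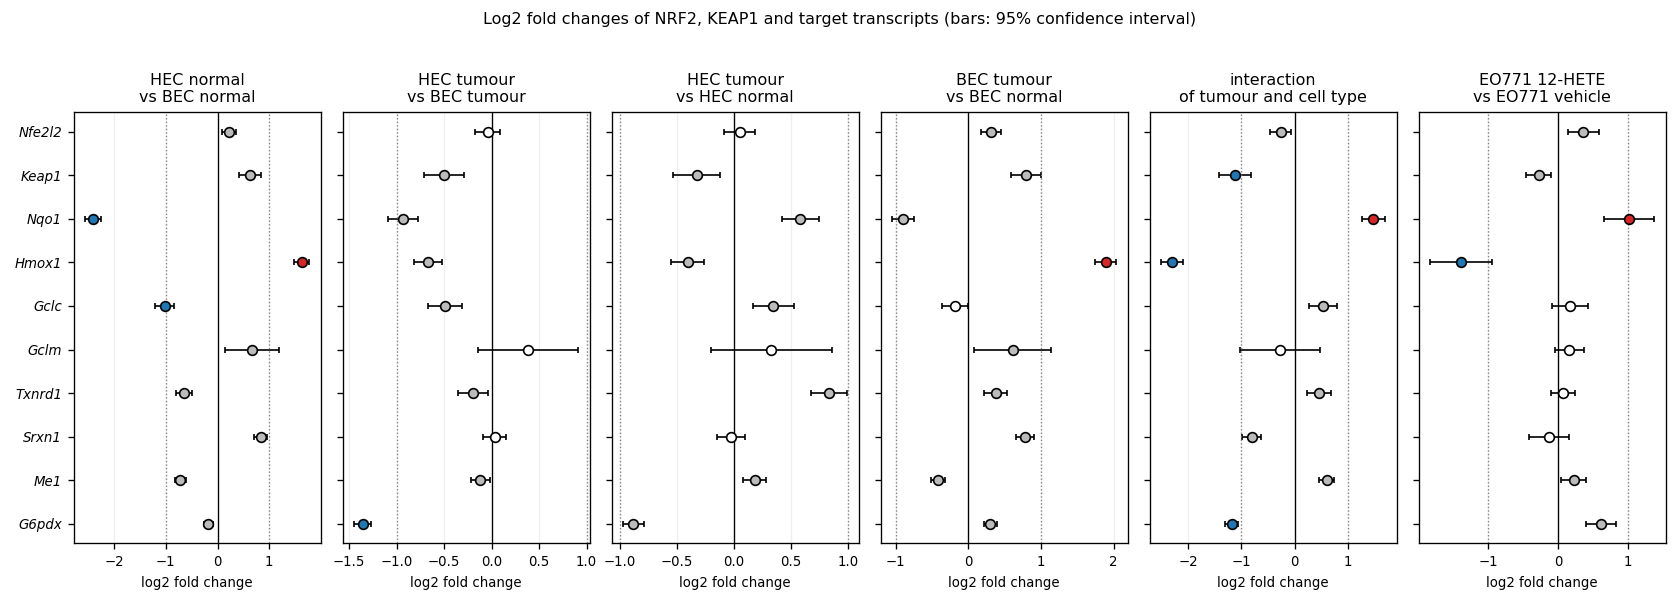
Log2 fold changes of Nfe2l2, Keap1 and 8 targets in the 6 comparisons, with 95% confidence intervals. Red marks genes called higher, blue called lower, grey an adjusted p under 0.05 without the 2-fold change, white neither, and dotted lines 2-fold. Each panel has its own horizontal scale. Members lie on both sides of 0 in each panel, from -2.41 (Nqo1) to 1.63 (Hmox1) in HEC normal against BEC normal.

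In EO771 cells the comparison asked how 12-HETE changes tumour cell expression. Nqo1 rose 2-fold, G6pdx and Nfe2l2 rose less, and Hmox1 fell. Of the 10 genes 1 was called higher, where 2.38% of 11602 genes tested were, and 1 lower, where 7.79% were. An adjusted p under 0.05 was reached by 6, where 47.0% of all genes reached it, with 4 higher and 2 lower. The median log2 fold change was 0.17, and that of all genes was 0.00. Libraries with the same number varied together, and with the replicate number as a block 4 of the 10 genes kept an adjusted p under 0.05.

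Nqo1 had few reads in these cells, with deposited counts of 106, 94 and 98 with vehicle and 210, 181 and 208 with 12-HETE. Normalised counts were 105, 89.8 and 100.3 with vehicle and 216, 178 and 205 with 12-HETE, and every 12-HETE library lay above every vehicle library. It rose by 1.02 ± 0.18 log2 units or 2.03-fold (DESeq2, adjusted p = 2.82e-07). The change sat at the 2-fold threshold, and its call was lost without vehicle replicate 2 (0.95) and without 12-HETE replicate 1 (0.97), which leaves no member called higher.

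Hmox1 normalised counts were 1564, 2403 and 1186 with vehicle and 687, 648 and 634 with 12-HETE. The vehicle libraries were spread over 2.03-fold and the 12-HETE libraries over 1.08-fold, with no overlap between the groups. Hmox1 fell by 1.39 ± 0.23 log2 units (DESeq2, adjusted p = 9.85e-09), and by 1.07 without the highest library, vehicle replicate 2. In EO771 cells Nqo1 and Hmox1, both targets of NRF2, thus moved in opposite directions, as they did in BEC tumour and in HEC tumour against their own controls.

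G6pdx rose from 2612, 2112 and 2181 to 3606, 3521 and 3469, by 0.62 ± 0.11 log2 units (DESeq2, adjusted p = 1.94e-07), with no overlap. Nfe2l2 rose from 3101, 2704 and 3434 to 4061, 3832 and 3998, by 0.36 ± 0.11 (adjusted p = 0.00386). Keap1 fell from 1186, 1204 and 1185 to 1033, 971 and 946, by 0.28 ± 0.09 (adjusted p = 0.00716), with an adjusted p of 0.0689 under the replicate block and of 0.0992 and 0.117 without 12-HETE replicate 2 or 3. Me1 rose by 0.22 ± 0.09 (adjusted p = 0.0354), with 0.0831 under the block and from 0.0606 to 0.197 without vehicle replicate 3 or any 12-HETE library. The 4 remaining targets did not pass the test, and the intervals of their log2 fold changes were from -0.08 to 0.44 for Gclc, -0.04 to 0.37 for Gclm, -0.10 to 0.25 for Txnrd1 and -0.41 to 0.15 for Srxn1. Without vehicle replicate 2 Gclc and Gclm passed (adjusted p = 0.00779 and 0.0445), and without vehicle replicate 3 Srxn1 did (0.0365).

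**Figure D5:**
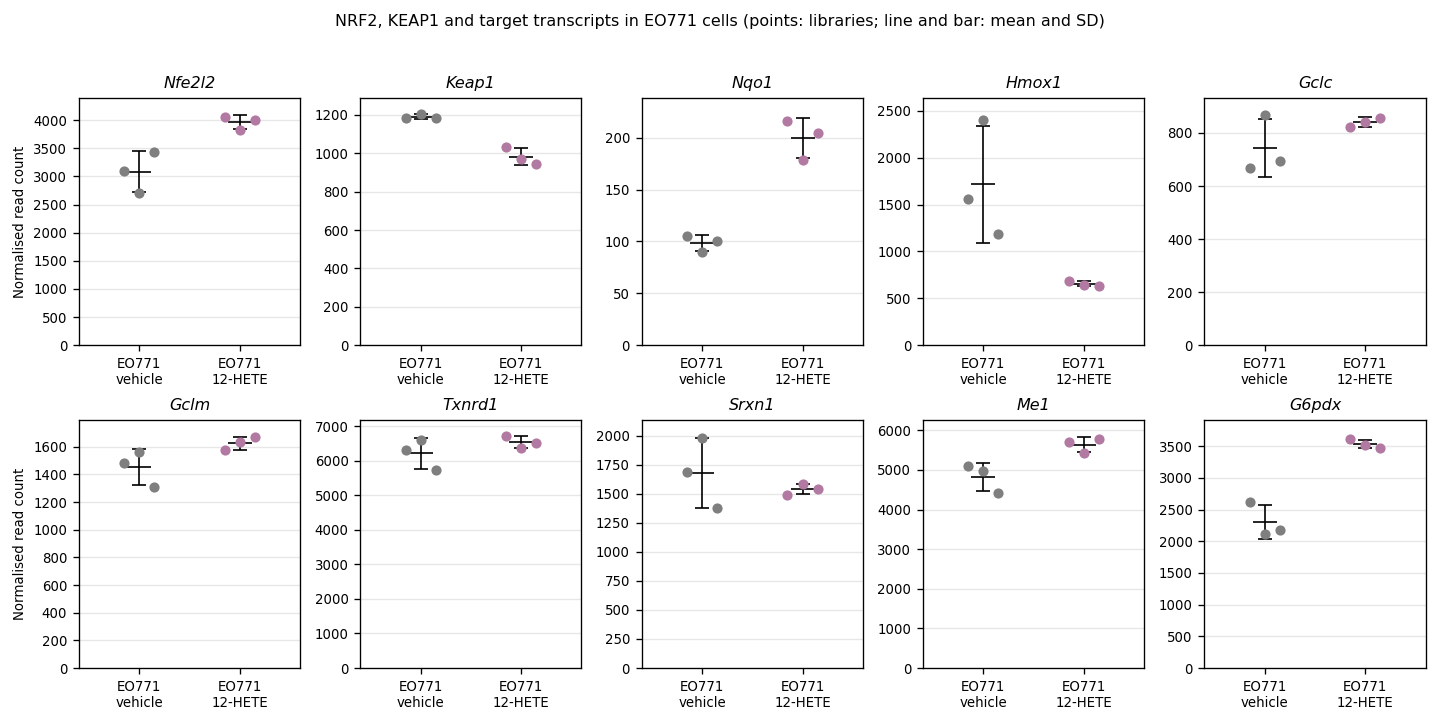
Normalised read counts of Nfe2l2, Keap1 and 8 targets in EO771 cells, 3 vehicle and 3 12-HETE libraries, vertical axes from 0. Points are libraries, the line and bar the mean and SD. Nqo1 runs from 89.8 to 105 with vehicle and from 178 to 216 with 12-HETE, and Hmox1 from 1186 to 2403 and from 634 to 687.

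Of the 51 other pathway genes tested in EO771 cells (Sod3 was not), 1 was called higher, beside 2.38% of all genes, and 8 lower, beside 7.79%. The higher gene was Idh1, whose mean went from 1179 to 2423 normalised counts (1.04 ± 0.11), and the count of higher genes was 2 under the replicate block and ran from 0 (without 12-HETE replicate 1) to 4 (without vehicle replicate 1) as single libraries were left out. Txnip went from 9032 to 1830 normalised counts, a fall of 2.30 ± 0.09 log2 units (DESeq2, adjusted p = 1.27e-142). Sqstm1, the autophagy receptor p62 that can hold KEAP1, went from 15554 to 5522 (-1.49 ± 0.10), and Mafk from 3162 to 1574 (-1.01 ± 0.09), at the 2-fold threshold. The calls of Idh1 and Mafk were both lost without vehicle replicate 2 or 12-HETE replicate 1. Of the glutathione list, 2 of 11 genes were called lower and none higher, and they are the 2 subunits of the cystine transporter, Slc7a11 (726 to 300 normalised counts, -1.28 ± 0.20) and Slc3a2 (12364 to 4954, -1.32 ± 0.15), named after their values were seen. Of the 11 detoxification genes none was called higher and 1 lower, their median log2 fold change was 0.25, and 1 or 2 were called higher without vehicle replicate 1 or 2.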

How the data were processed

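The members and the gene lists were chosen with earlier results of these data known. The authors mapped endothelial reads with STAR (GRCm38) and summed them over genes by featureCounts. What was deposited was treated as estimated counts, since the values are whole numbers in steps of between 3.65 and 3.71 and 1 unit is therefore not 1 fragment. For EO771 cells the authors deposited raw counts per gene symbol. The labels and the methods name different library kits, and neither states whether counting used strand. Replicates are separate samples in the labels, and p-values measure only the spread between them.

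Genes with a mean of at least 10, 18511 and 11602 of them, were tested with DESeq2 1.42.0 (R 4.3.3). There were 12 endothelial libraries in 1 fit and 6 EO771 libraries in another. Settings were the defaults, as in the study's methods, except that the level given to the independent filtering of DESeq2 was 0.05. Benjamini-Hochberg adjustment followed that filtering, so it can run over fewer genes than were tested. Called genes had an adjusted p under 0.05 and a fold change over 2. The scripts were tested on simulated data. All 10 members are named, and of the other pathway genes at most the 3 higher and the 3 lower called genes with the largest Wald statistic in each comparison. As an exception Slc7a11 and Slc3a2 in EO771 cells were named after their values were seen, as were marker genes of libraries that stood apart. Alternatives were edgeR 4.0.16, TMM scaling, no filter on low values, values divided by the step, the 6 libraries of a comparison alone, a replicate block, and each library left out. Markers are given as CPM of the deposited totals. Exon lengths and overlaps came from GENCODE annotation of GRCm38.

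The pairing of replicate numbers was checked from correlations of deviations from group means over genes. In EO771 cells the same-numbered libraries had correlations of 0.111, 0.173 and 0.328, so the block is given beside results it changes. In endothelial cells they ran from -0.028 to 0.126, and the numbers were not taken to pair libraries. With 3 against 3 libraries an exact permutation test cannot go below p = 0.1, so none is given.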

Additional observations from a re-analysis of the deposited data

Results flagged for a closer look

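For 4 of the 10 genes the tumour response of HECs was not that of BECs, by the interaction term of the DESeq2 fit with a fold over 2. The change in HECs less that in BECs was -1.12 log2 units for Keap1, 1.48 for Nqo1, -2.30 for Hmox1 and -1.18 for G6pdx. All 4 changed sign between the cell types. Over all genes tested, 11.2% were called higher and 12.1% lower by this term. The call of these 4 genes was kept under each of the 17 other fits run. The myeloid marker sum differed with tumour in the same libraries, upwards in BECs, where all 7 markers had higher means, and downwards in HECs, where Cd68 carried nearly all of the sum, and its part in the Hmox1 term was not tested.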

How the results depend on the processing

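The adjusted p alone was also used as the rule, and the share of all genes that passed it in either direction is given in brackets. The counts of members became 5 higher and 5 lower in HEC normal against BEC normal (63.3%) and 7 lower in HEC tumour against BEC tumour (54.3%). They became 4 higher and 3 lower in HEC tumour against HEC normal (35.4%) and 7 higher and 2 lower in BEC tumour against BEC normal (53.7%). For the interaction they were 4 higher and 5 lower (46.7%), and in EO771 cells 4 higher and 2 lower (47.0%). Shares of all genes by direction were not counted for this rule. With edgeR and with TMM scaling 1 member was called lower in HEC normal against BEC normal in place of 2, Gclc having left. As single libraries were left out that count ran from 1 to 2, and the count called higher in EO771 cells from 0 to 1. The sign of 3 differences near 0 reversed with 1 library left out, the log2 fold change running from -0.0790 to 0.0004 for Nfe2l2 and from -0.0048 to 0.0905 for Srxn1 in HEC tumour against BEC tumour, and from -0.0609 to 0.0349 for Srxn1 in HEC tumour against HEC normal. Over 750 member values under the alternatives, 710 kept their side of an adjusted p of 0.05, and 40 did not. The replicate block moved no count of called members, with 1 higher and 1 lower in EO771 cells as without it. In the endothelial libraries, whose numbers were not taken as pairs, the block took the adjusted p of Me1 in HEC tumour against BEC tumour to 0.069. Markers of other cells, the tissues and their digestion cannot be told apart from the groups, and depth in fragments of the endothelial libraries is known only through the step.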
